A study of Homo sapiens with 9 samples.

Results

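The genes described here are the 88 human genes that encode the proteins of the cytosolic ribosome, out of 19974 protein-coding genes on chromosomes 1 to 22 and X of the RefSeq annotation of GRCh38. They were chosen by symbol: RPL or RPS followed by a digit, RPSA, RPLP0, RPLP1 and RPLP2, without the RPS6 kinases, RPS19BP1 and pseudogene names. By role, 46 encode proteins of the large subunit and 31 proteins of the small subunit. A further 8 are paralogs with a suffix of their own (RPL3L, RPL7L1, RPL10L, RPL22L1, RPL26L1, RPL36AL, RPL39L and RPS27L). The last 3 are readthrough symbols (RPL17-C18orf32, RPL36A-HNRNPH2 and RPS10-NUDT3), which start at the same region as RPL17, RPL36A and RPS10, so those 3 pairs are not independent values.

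Ribosomal protein genes are housekeeping genes that are transcribed by RNA polymerase II in every growing cell, and their products are needed in about equal numbers to build ribosomes. Their transcripts typically begin with a cytosine inside a run of pyrimidines, the 5′ terminal oligopyrimidine (TOP) tract, through which the mTOR pathway and the protein LARP1 adjust how strongly they are translated. Low oxygen is known to lower translation and ribosome production in many cells. Chromatin at the starts of these genes is commonly open whatever the tissue.

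The cells were T47D, an established line from a human luminal breast tumour, and open chromatin was mapped in them by ATAC-seq, which reads out where a transposase can cut and tag DNA. The groups were hypoxia shZHX2 (cells with a short hairpin RNA against ZHX2, kept in hypoxia), hypoxia shCtrl (a control hairpin, in hypoxia) and normoxia shCtrl (the control hairpin, in normoxia). Each had 3 samples. ZHX2 is a zinc finger and homeobox protein of the nucleus. All groups had gone through lentiviral infection and drug selection, and all hypoxic cells were kept in a hypoxia workstation. The sources used here do not give the oxygen level, its duration or the number of separate hairpins. Each reaction took 50000 nuclei, transposed for 30 minutes.

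The deposited data are 3 lists of called regions, 1 per group, and were tied to the groups by the oxygen state and hairpin in the name of each list. The sources used here do not say in what way the 3 samples became 1 list. There is therefore no spread between samples and no test: every value below describes a list, and intervals cover counting error only. The lists held 62779 regions over 40.6 Mb in hypoxia shZHX2, 77451 over 48.5 Mb in hypoxia shCtrl and 90962 over 60.1 Mb in normoxia shCtrl. Depth is unknown, and its part in the differing list lengths was not tested. Over all protein-coding genes, 70.3% in hypoxia shZHX2, 72.5% in hypoxia shCtrl and 74.4% in normoxia shCtrl were called at a gene end. Of 10 luminal marker genes, 9 were called in each list, the exception being ESR1. Of 10 blood markers 5 and of 8 liver and neuron markers 4 were called in each list, and of 10 stromal and endothelial markers 4 were called in hypoxia shZHX2 and 5 in each of the other lists.

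To show what these starts look like in sequence, the promoter windows of 10 members are printed from 120 bases before the annotated start to 30 bases from the start on, 5′ to 3′ on the gene's strand, from RefSeq on GRCh38.p14. They are members with the highest and lowest accessibility in hypoxia shCtrl and those with the largest and smallest ratios in the comparisons below, as far as the promoter table holds them. Capitals mark the run of C and T that holds the annotated start and any match to the 9 motifs searched, which are spelled out below the sequences. The high starts in hypoxia shCtrl are RPS4X (chrX:72277219-72277368, minus strand), RPSA (chr3:39406600-39406749, plus strand) and RPL34 (chr4:108620456-108620605, plus strand).
RPS4X: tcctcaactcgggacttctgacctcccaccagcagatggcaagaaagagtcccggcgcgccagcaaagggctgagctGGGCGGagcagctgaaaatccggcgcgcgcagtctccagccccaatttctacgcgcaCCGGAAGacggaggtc
RPSA: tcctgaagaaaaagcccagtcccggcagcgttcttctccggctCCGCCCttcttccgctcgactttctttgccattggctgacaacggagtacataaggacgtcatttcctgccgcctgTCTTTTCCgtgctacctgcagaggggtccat
RPL34: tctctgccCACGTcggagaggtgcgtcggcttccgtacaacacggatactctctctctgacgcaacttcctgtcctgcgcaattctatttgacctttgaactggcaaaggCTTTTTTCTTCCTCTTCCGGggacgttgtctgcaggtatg
The low starts in hypoxia shCtrl are RPL36 (chr19:5690175-5690324, plus strand), RPL12 (chr9:127451377-127451526, minus strand) and RPL41 (chr12:56116513-56116662, plus strand).
RPL36: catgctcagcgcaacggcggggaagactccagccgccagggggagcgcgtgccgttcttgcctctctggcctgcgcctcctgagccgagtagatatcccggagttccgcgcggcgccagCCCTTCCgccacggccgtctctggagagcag
RPL12: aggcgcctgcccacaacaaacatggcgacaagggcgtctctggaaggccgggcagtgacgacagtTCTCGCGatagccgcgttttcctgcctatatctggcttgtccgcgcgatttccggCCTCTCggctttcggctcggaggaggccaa
RPL41: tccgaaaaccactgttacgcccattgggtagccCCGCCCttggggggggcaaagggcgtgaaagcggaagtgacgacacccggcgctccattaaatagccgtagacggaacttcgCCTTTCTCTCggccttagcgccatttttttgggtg
The largest and smallest ratios of hypoxia shCtrl to normoxia shCtrl were those of RPL19 (chr17:39200163-39200312, plus strand) and RPL21 (chr13:27251438-27251587, plus strand). Those of hypoxia shZHX2 to hypoxia shCtrl were RPS15 (chr19:1438276-1438425, plus strand) and RPS21 (chr20:62386983-62387132, plus strand).
RPL19: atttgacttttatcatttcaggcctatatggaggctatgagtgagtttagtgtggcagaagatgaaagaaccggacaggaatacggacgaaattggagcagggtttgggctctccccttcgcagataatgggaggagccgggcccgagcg
RPL21: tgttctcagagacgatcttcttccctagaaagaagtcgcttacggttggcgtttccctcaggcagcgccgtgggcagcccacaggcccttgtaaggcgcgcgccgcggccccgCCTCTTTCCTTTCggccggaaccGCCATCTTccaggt
RPS15: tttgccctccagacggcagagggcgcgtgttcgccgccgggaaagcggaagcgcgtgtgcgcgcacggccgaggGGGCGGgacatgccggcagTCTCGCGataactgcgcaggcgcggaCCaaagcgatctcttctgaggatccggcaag
RPS21: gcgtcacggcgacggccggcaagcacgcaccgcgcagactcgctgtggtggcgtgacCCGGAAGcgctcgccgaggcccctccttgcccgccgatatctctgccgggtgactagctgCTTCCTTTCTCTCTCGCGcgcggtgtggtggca
Where a run and a motif overlap or adjoin, as in RPL34 and RPS21, their capitals form a single stretch. In the printed stretches the Sp1 motif is held by RPS4X, RPSA, RPL41 and RPS15, the ETS motif by RPS4X, RPL34 and RPS21, and the TCTCGCG element by RPL12, RPS15 and RPS21. The YY1 motif is in RPL21 and the hypoxia response core in RPL34, on the minus strand of the gene in both, while the printed 150 bases of RPL36 and RPL19 hold none of the 9. In the 300-base windows used for the counts below, RPL19 has 1 ETS match, 1 E-box and 2 matches to the hypoxia response core, which the E-box contains, and RPL36 has 2 NRF1 matches. Of these 10 windows, 8 begin the transcript with C, RPS4X with A and RPL19 with G. RPL19 has a further annotated start 40 bases downstream of the start used here.

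The promoter table held windows for 70 of the 88 members. A C stood at the annotated start in 49 of 70 members (70.0%), in 11.3% of all 15813 promoters and in 11.7% of the 11135 promoters whose start had a region in hypoxia shCtrl. Among mitochondrial ribosomal protein genes, which encode the separate ribosome of the organelle, it was 9 of 69 (13.0%), and among translation factors and other TOP genes 14 of 18 (77.8%). A run of 5 or more C and T across the start was found in 67.1% of members and 8.09% of all promoters. Where a member began with C or T, the run had a median of 12 bases and was longest in RPL7A, at 25 bases.

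The motifs were searched on both strands over 250 bases before to 50 bases from the start on. CCGGAAG, the core bound by ETS factors, was in 32.9% of members, 42.0% of mitochondrial ribosomal protein genes and 14.1% of all promoters. TCTCGCG, the core of an element known from human ribosomal protein promoters, was in 24.3% of members, 5.80% of mitochondrial ribosomal protein genes and 4.88% of all promoters. AAGATGGC, bound by YY1, was in 10.0% of members, 29.0% of mitochondrial ribosomal protein genes and 3.86% of all promoters. GGGCGG, bound by Sp1, was in 54.3% of members and 58.3% of all promoters. ACGTG, the core of the hypoxia response element to which HIF binds, was in 30.0% of members, 26.2% of promoters with a region in hypoxia shCtrl and 23.7% of all promoters. ACGTG lies inside the E-box CACGTG, which was in 5.71% of members and 8.82% of all promoters. The letters TATAAA of the TATA box were in 10.0% of members and 9.75% of all promoters. The CREB site TGACGTCA was in 4.29% of members and 2.56% of all promoters, and the NRF1 site GCGCATGC in 4.29% of members and 4.27% of all promoters. A match describes letters in the window and not a bound site.

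**Figure D1:**
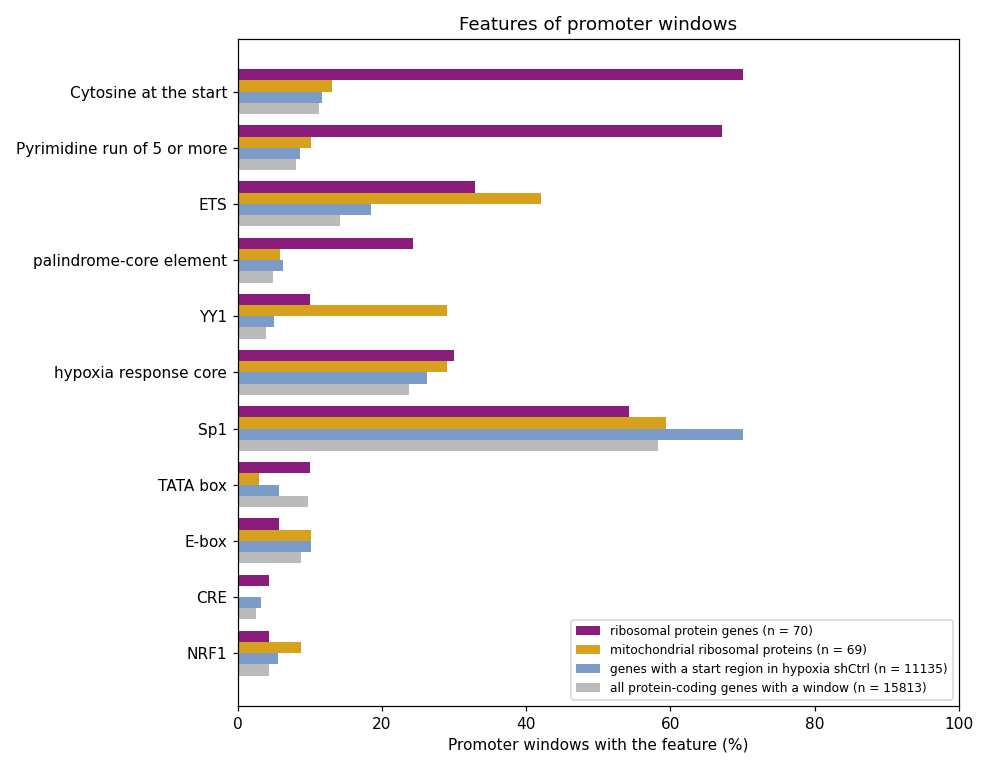
Horizontal bars give the percentage of promoter windows with each feature in 70 ribosomal protein genes, 69 mitochondrial ribosomal protein genes, 11135 genes with a start region in hypoxia shCtrl and all 15813 genes with a window; the palindrome-core element is the 7-letter element named in the text. Ribosomal protein genes stand highest for a cytosine at the start (70.0%) and for a pyrimidine run over it, and mitochondrial ribosomal protein genes highest for the ETS and YY1 motifs.

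Nearly every ribosomal protein gene was called at an end, meaning a called region within 1 kb of the first or last base of the gene, and the same genes had it in all 3 lists. In hypoxia shZHX2 86 of 88 members had one (97.7%, exact 95% interval 92.0 to 99.7%), where the share over all protein-coding genes was 70.3%. In hypoxia shCtrl it was again 86 members, with a background of 72.5%, and in normoxia shCtrl 86 members, with a background of 74.4%. The 86 were the same in each list, and 69.7% of all genes had a region in all 3. Every one of the 46 large subunit genes and the 31 small subunit genes was among them. The paralog RPL3L was counted through a region that lay outside the gene in each list. In hypoxia shCtrl that region also lay at an end of MSRB1. The strand of RPL3L was not known, and its start values in the counts below come from this region. Mitochondrial ribosomal protein genes had the same degree of calling, with 75 of 77 in each list.

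The exceptions were both paralogs. RPL10L, an intronless relative of RPL10 known for expression in testis, had its nearest region 59153 bp from the gene in hypoxia shZHX2, 35403 bp in hypoxia shCtrl and 9983 bp in normoxia shCtrl (minus strand, start at base 46651781 of chromosome 14). RPL26L1, a close relative of RPL26, had no region at its outer end. Its annotated starts at bases 172958729 and 172958880 of chromosome 5, more than 4 kb inside the gene, were covered in all 3 lists, by regions with a fold of 6.49 in hypoxia shZHX2, 6.98 in hypoxia shCtrl and 5.73 in normoxia shCtrl. Counted over the 70 members in the promoter table, 69 had an annotated start inside a region in each list, RPL10L being the member of those 70 without.

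No member had a gene end called in hypoxia shCtrl and not in normoxia shCtrl, or the reverse; among all genes those shares were 0.476% and 2.35%. Likewise no member was called in hypoxia shZHX2 and not in hypoxia shCtrl, or the reverse, against 0.471% and 2.72% of all genes. The exact upper limit that 0 of 88 leaves is 4.11%, which is above all of these shares, so a count of 0 is not distinguishable from the background at this number of genes. In all 86 members with a start region in each list the 3 regions shared bases, as they did in 99.0% of all such genes.

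The start region is the region at the outer base of the gene on its 5′ side. It covered that base in 68 of 68 members whose strand and region were known, in each list, and in 67 of the 68 it also held a start of the promoter table. The exception, RPL6, has its table starts 7393 and 9550 bp inside the gene. Its start region, which also lies at an end of PTPN11, had a fold of 5.65 in hypoxia shZHX2, 5.77 in hypoxia shCtrl and 5.79 in normoxia shCtrl, and a separate region over the inner of those starts had 8.13, 8.22 and 7.21. Over all genes the start region covered the outer base in 89.6% in hypoxia shZHX2, 89.4% in hypoxia shCtrl and 89.2% in normoxia shCtrl. Member regions reached a median of 498 bp upstream and 424 bp downstream of that base in hypoxia shZHX2, 501 and 456 bp in hypoxia shCtrl, and 518 and 453 bp in normoxia shCtrl. For all genes the medians were 467 bp upstream and 607 bp downstream in hypoxia shZHX2, 467 and 601 bp in hypoxia shCtrl, and 492 and 636 bp in normoxia shCtrl. By these medians, member regions ended nearer to it on the gene's side than those of genes at large. So did those of mitochondrial ribosomal protein genes, with downstream medians of 530, 476 and 564 bp in the same order of lists. The median total width of member regions was 1024, 1029 and 1076 bp in hypoxia shZHX2, hypoxia shCtrl and normoxia shCtrl. All genes had 1120, 1115 and 1178 bp, and mitochondrial ribosomal protein genes 1026, 988 and 1045 bp.

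**Figure D2:**
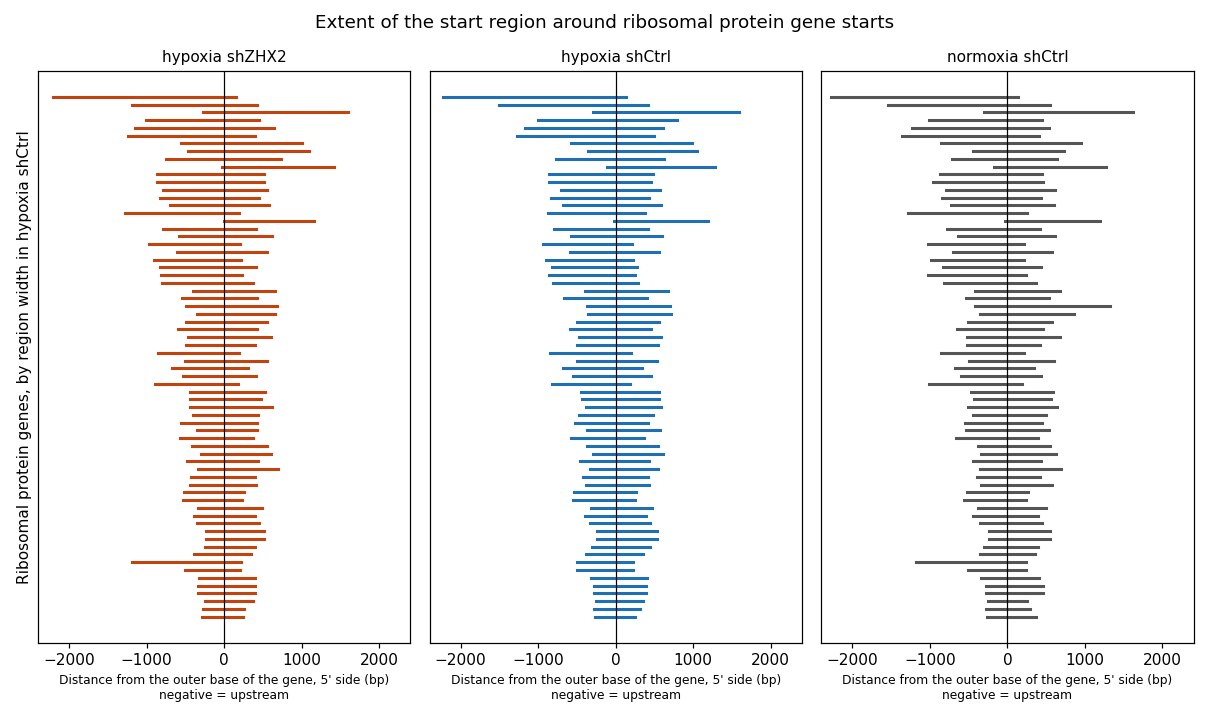
Each horizontal line is the start region of 1 of 68 ribosomal protein genes with a known strand, drawn by its distance from the outer base of the gene on its 5′ side in bp (upstream negative), in hypoxia shZHX2, hypoxia shCtrl and normoxia shCtrl; genes keep the same row, ordered by width in hypoxia shCtrl. All 68 lines cross that base in each list, and most have about the same ends in the 3 panels.

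How open each start was is given by the authors' fold enrichment, which MACS2 reports for broad regions as the mean over the region; values of different lists are not on a common scale, and a broader call lowers the mean. The median fold at member starts was 6.84 in hypoxia shZHX2, 6.70 in hypoxia shCtrl and 6.14 in normoxia shCtrl, where starts of all genes had 6.13, 5.85 and 5.67 in the same order. That puts the median member at percentile 64.2, 67.0 and 60.0 of all gene starts. Mitochondrial ribosomal protein genes stood somewhat higher, with medians of 7.34, 7.09 and 7.05. Large and small subunit genes overlapped widely: in hypoxia shCtrl the quartiles were 5.06 and 7.54 for large subunit genes, and 6.08 and 7.71 for small subunit genes.

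Members kept their places between lists, with a Spearman's rho of 0.95 between the folds of hypoxia shCtrl and normoxia shCtrl over 86 genes, a description of lists made in the same way. The most open start in hypoxia shCtrl was that of RPS4X, the small subunit protein gene on the X chromosome, with a fold of 10.2 in hypoxia shZHX2, 9.87 in hypoxia shCtrl and 9.67 in normoxia shCtrl. RPSA, whose protein is also known as the laminin receptor, had 10.1, 9.49 and 9.25 in the same order of lists. The paralog RPL39L was also among the high starts, with 9.55, 9.67 and 8.85. These 3 were at percentile 95.5 or higher of all gene starts in both hypoxia lists.

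At the low end RPL36 had a fold of 4.16 in hypoxia shZHX2, 3.69 in hypoxia shCtrl and 3.65 in normoxia shCtrl. RPL12, of the ribosomal stalk base, had 3.99, 3.79 and 3.75, over a region of 1776 bp in hypoxia shCtrl that also lies at the end of LRSAM1. RPL41, the smallest ribosomal protein, had 4.08, 3.79 and 3.51. RPL7A, whose 1766 bp region is also at MED22, had 4.40, 3.85 and 3.90. RPL7, whose 2222 bp region is also at RDH10, had 3.92, 4.01 and 3.95. Low folds went with wide regions in part: over the 86 members, Spearman's rho between fold and width in hypoxia shCtrl was -0.50, a description of regions called in a single list. RPL36 and RPL41 are exceptions, with widths of 604 and 804 bp. The widest start regions were those of RPL28 (2363 bp in hypoxia shCtrl, shared with TMEM238), RPL7, RPL9 (1930 bp, shared with LIAS), RPS3 (1881 bp) and RPS29 (1788 bp, shared with LRR1). In all, 30 of 86 member regions (34.9%) also lay at an end of another protein-coding gene, against 27.4% over all genes, and in 26 of the 86 that other gene was not itself a member.

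Members known for roles beyond the ribosome or in its assembly lay within the same range. RPL5 and RPL11, which together bind MDM2 when ribosome assembly fails, had folds of 10.8 and 8.69 in hypoxia shZHX2, 9.25 and 8.58 in hypoxia shCtrl, and 8.53 and 7.66 in normoxia shCtrl. The stalk proteins differed among themselves: RPLP0 had 8.27, 7.43 and 7.14, RPLP1 had 6.56, 6.75 and 5.28, and RPLP2 had 5.84, 5.27 and 4.53 in hypoxia shZHX2, hypoxia shCtrl and normoxia shCtrl. RPS6, the target of S6 kinase, had 7.87, 7.25 and 7.20. RPS14 and RPS19, whose loss underlies the anaemia of the 5q- syndrome and Diamond-Blackfan anaemia, had 7.75 and 8.41 in hypoxia shZHX2, 7.58 and 8.26 in hypoxia shCtrl, and 7.08 and 7.89 in normoxia shCtrl. RPS27A, made as a fusion to ubiquitin, had 6.58, 6.02 and 5.63. In each of the genes named in this paragraph the normoxia value was the lowest of the 3, as was the median of all genes. This did not hold for every member with such a role. Nor did it hold for RPL21, which had 7.37 in hypoxia shCtrl and 8.18 in normoxia shCtrl.

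**Figure D3:**
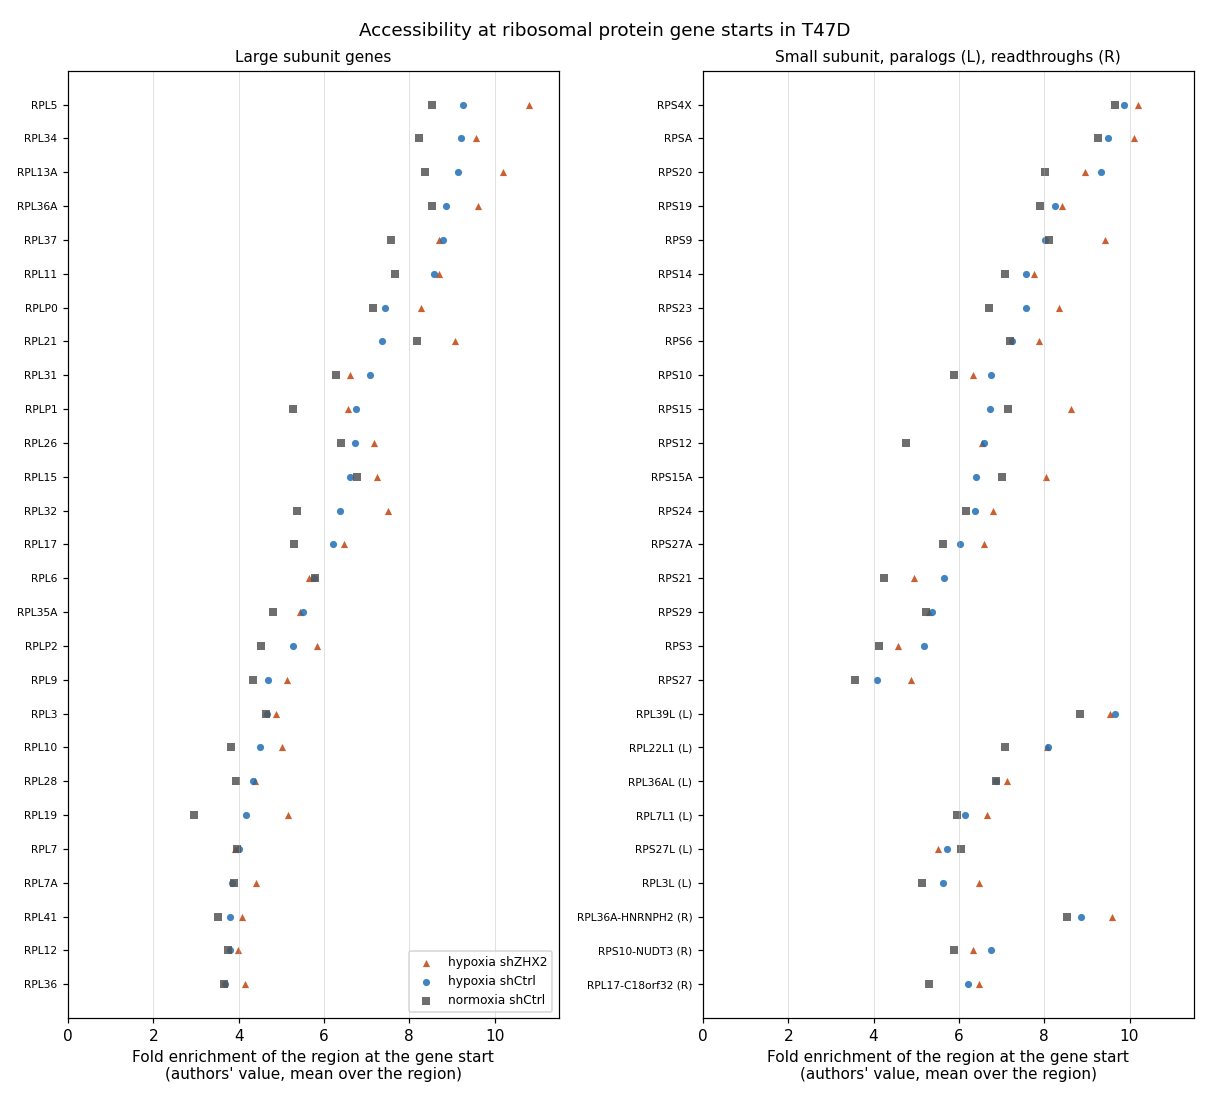
Points give the authors' fold enrichment of the region at the gene start for 54 of the 86 ribosomal protein genes with such a region, those named in the text, in hypoxia shZHX2 (triangles), hypoxia shCtrl (circles) and normoxia shCtrl (squares); large subunit genes stand on the left, the others on the right, and RPL6 is drawn at its outer base. Genes are ordered by hypoxia shCtrl within each class, from RPS4X at 9.87 to RPL36 at 3.69, and the 3 lists give nearly the same order.

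Between oxygen states, the start regions of most ribosomal protein genes had slightly higher folds in hypoxia shCtrl than in normoxia shCtrl. The median log2 ratio of the folds was 0.12 as deposited, and 0.09 relative to the median over all genes, which was 0.03. Of the 86 members, 68 (79.1%) lay above the median ratio of all genes, above which, by construction, as many genes lie as below. No member was more than 1.5-fold higher relative to that median (0.108% of all genes were), and no member was more than 1.5-fold lower (0.462% of all genes were). Both subunits showed it: 35 of 46 large subunit genes and 26 of 31 small subunit genes lay above, each class with a median of 0.09. Over other lists of the translation machinery, 45 of 75 mitochondrial ribosomal protein genes (median 0.03), 20 of 24 translation factor and TOP genes (0.07) and 25 of 38 ribosome assembly and RNA polymerase I genes (0.06) lay above. The shift of the members is of the size of the spread among genes, whose quartiles were -0.07 and 0.07, and without values per sample it has no error against which to judge it.

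RPL19, a large subunit gene whose first and last bases are 39200283 and 39204732 of chromosome 17, had the largest ratio. Its fold was 4.18 in hypoxia shCtrl and 2.95 in normoxia shCtrl, a relative log2 ratio of 0.48. The region was 899 bp wide in hypoxia shCtrl and 882 bp in normoxia shCtrl. RPS12 had 6.58 in hypoxia shCtrl and 4.77 in normoxia shCtrl, with a ratio of 0.44 and widths of 1255 and 1533 bp. RPS21 (0.38) had 5.65 over 730 bp in hypoxia shCtrl and 4.25 over 1426 bp in normoxia shCtrl. RPLP1 (0.33) had 6.75 over 1071 bp in hypoxia shCtrl and 5.28 over 1739 bp in normoxia shCtrl. RPS3 (0.30), whose protein also takes part in DNA repair, had 5.19 over 1881 bp in hypoxia shCtrl and 4.12 over 1920 bp in normoxia shCtrl. In RPS12, RPS21 and RPLP1 the hypoxia region was the narrower, and in RPS21 and RPLP1 fold times width was lower in hypoxia shCtrl, by log2 ratios of -0.55 and -0.35.

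The smallest ratios were below 0. RPL21 had a fold of 7.37 in hypoxia shCtrl and 8.18 in normoxia shCtrl (relative log2 ratio -0.18). RPS15A had 6.39 and 7.02 in the same order (-0.16), RPS15 6.73 and 7.14 (-0.11), the paralog RPS27L 5.72 and 6.04 (-0.11), and RPL15 6.61 and 6.78 (-0.06). The region of RPS15A was 1213 bp wide in hypoxia shCtrl and 899 bp in normoxia shCtrl. Over the 86 members the log2 ratio of the folds went against that of the widths, with Spearman's rho of -0.58, as it did over all genes with -0.38. Both quantities come from the same call, so the rho is a description of the calls.

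With the ZHX2 hairpin the members stood close to genes at large. The median log2 ratio of hypoxia shZHX2 to hypoxia shCtrl was 0.09 as deposited and 0.03 relative to the median over all genes, which was 0.05, and 56 of 86 members (65.1%) lay above that median. Past 1.5-fold there was no member in either direction, where 0.185% of all genes were higher and 0.497% lower. Large subunit genes had a relative median of 0.06 with 32 of 46 above, and small subunit genes 0.03 with 19 of 31 above. The other translation lists lay about the middle, with 28 of 75 mitochondrial ribosomal protein genes (median -0.04), 10 of 24 translation factor and TOP genes (-0.02) and 16 of 38 ribosome assembly and RNA polymerase I genes (-0.01) above. This comparison and the comparison of oxygen states use the same hypoxia shCtrl list, so their ratios are not independent.

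RPS15, a small subunit gene on chromosome 19, had the largest ratio. Its fold was 8.62 over 770 bp in hypoxia shZHX2 and 6.73 over 944 bp in hypoxia shCtrl, a relative log2 ratio of 0.30. RPS15A (0.28) had 8.04 over 904 bp and 6.39 over 1213 bp in the same order, and RPL21 (0.25) had 9.07 over 901 bp and 7.37 over 1048 bp. In these 3 the region was narrower in hypoxia shZHX2, and their ratios in the oxygen comparison were the 3 smallest. RPL19 (0.25) had 5.15 over 915 bp in hypoxia shZHX2 and 4.18 over 899 bp in hypoxia shCtrl, and RPS27 (0.21) had 4.87 over 528 bp and 4.07 over 517 bp. RPL19 therefore stood in the order hypoxia shZHX2, hypoxia shCtrl, normoxia shCtrl from high to low, at percentiles 31.0, 19.4 and 5.42 of all gene starts.

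The smallest ratio was that of RPS21, with 4.94 over 1405 bp in hypoxia shZHX2 and 5.65 over 730 bp in hypoxia shCtrl (relative log2 ratio -0.25); its fold times width was higher in hypoxia shZHX2, by a log2 ratio of 0.75. RPS3 (-0.23) had 4.58 over 1869 bp in hypoxia shZHX2 and 5.19 over 1881 bp in hypoxia shCtrl, with nearly the same width. RPL31 (-0.15) had 6.62 and 7.09, and RPS10 (-0.15), whose start RPS10-NUDT3 shares, had 6.33 and 6.76. Over the 86 members Spearman's rho between fold and width ratios was -0.52, and over all genes -0.41.

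**Figure D4:**
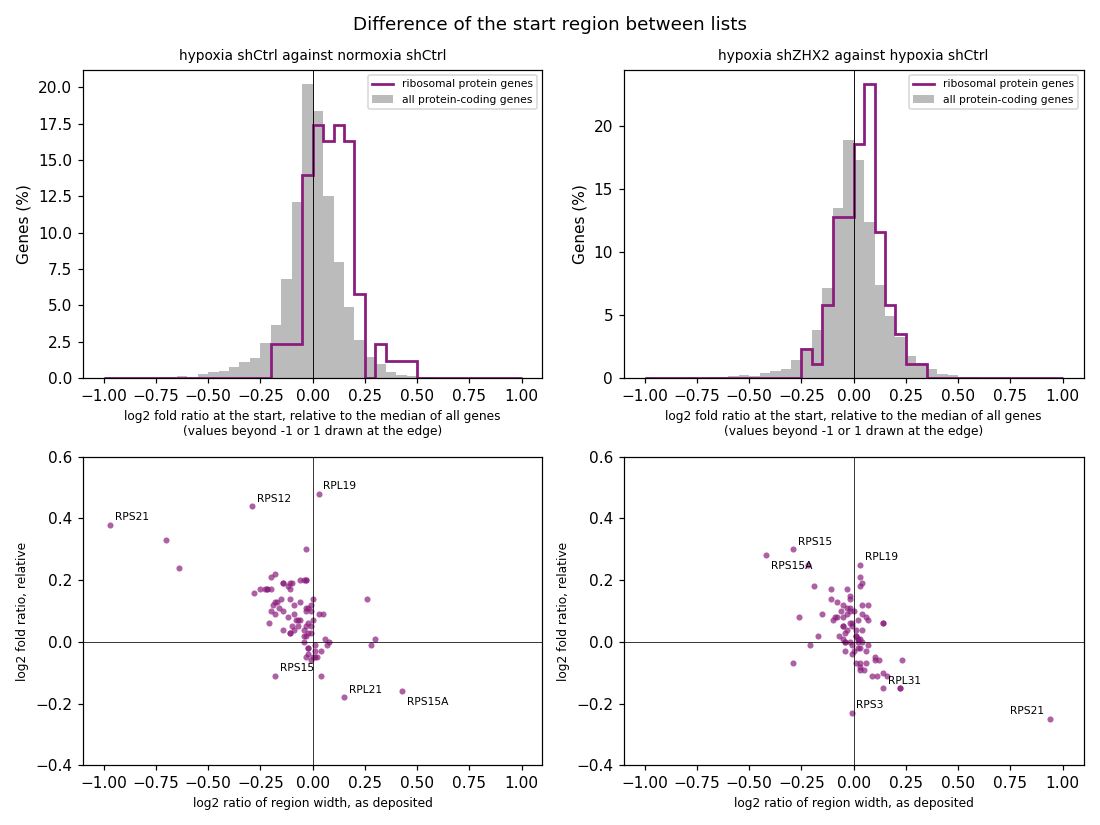
The upper panels give the percentage of genes by log2 fold ratio at the start relative to the median of all genes, in bins 0.05 wide, for all protein-coding genes (grey) and 86 ribosomal protein genes (line), in hypoxia shCtrl against normoxia shCtrl and in hypoxia shZHX2 against hypoxia shCtrl; the lower panels plot the same ratio of each ribosomal protein gene against the log2 ratio of region widths, naming the 3 largest and 3 smallest. Ribosomal protein genes lie right of the middle in the oxygen comparison (median 0.09) and near it in the hairpin comparison (0.03), and higher ratios go with narrower regions.

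Members were also divided by the base at the start and by the 4 motifs that at least 10 members held. In hypoxia shCtrl against normoxia shCtrl the 49 members that begin with C had a median relative log2 ratio of 0.09, and the 19 others 0.08. Members with ACGTG had a median of 0.10 over 21 genes, and those without 0.09 over 47 genes. With CCGGAAG it was 0.13 over 23 genes and without 0.07 over 45 genes, with quartiles of 0.05 and 0.17 with it and 0.01 and 0.13 without. With GGGCGG it was 0.07 over 37 genes and without 0.12 over 31 genes, with quartiles of 0.00 and 0.13 with it and 0.03 and 0.18 without. With TCTCGCG it was 0.12 over 17 genes and without 0.08 over 51 genes, with quartiles of 0.04 and 0.20 with it and 0.01 and 0.14 without. The ranges between quartiles overlapped in each of these divisions. In hypoxia shZHX2 against hypoxia shCtrl the medians were 0.02 for a C start and 0.05 for another base, 0.01 with CCGGAAG and 0.04 without, and for each of the other 3 motifs 0.02 with it and 0.04 without.

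The far end of the gene was less often called than the start and varied more between lists. Among the 70 members with a known strand, 14 had a region within 1 kb of the last base in hypoxia shZHX2 (12.6% of all genes did), 17 in hypoxia shCtrl (15.0%) and 21 in normoxia shCtrl (16.9%). At least 2 separate regions at the gene ends were found in 15 of 88 members in hypoxia shZHX2 (background 9.07%), 18 in hypoxia shCtrl (10.8%) and 24 in normoxia shCtrl (12.5%). Some far regions were called in 1 list and not in another. A region inside RPL10 that ended 73 bp before its last base had a fold of 2.12 in normoxia shCtrl and was not called in either hypoxia list. Likewise RPS23 had a region of 239 bp with a fold of 2.60, and RPL35A a region of 314 bp with a fold of 1.84, in normoxia shCtrl alone. At RPL22L1 the far region had a fold of 2.18 in hypoxia shCtrl and 2.33 in normoxia shCtrl and was not called in hypoxia shZHX2. At RPLP0 and RPL3 the difference is in an edge, and at RPL37 it is so between hypoxia shCtrl and normoxia shCtrl. The RPL37 region was not called in hypoxia shZHX2. The regions of RPLP0, RPL3 and RPL37 had folds of 3.81, 4.42 and 3.13 in normoxia shCtrl. A region near the far end of RPL3 began 1502 bp from it in hypoxia shZHX2, 1276 bp in hypoxia shCtrl and 992 bp in normoxia shCtrl, so it passed the 1 kb limit in normoxia shCtrl.

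Each region was also assigned to the protein-coding gene with the nearest end, if within 50 kb. A region equally near to the ends of several genes went to the gene first by position. By this rule 161 regions belonged to members in hypoxia shZHX2, 181 in hypoxia shCtrl and 198 in normoxia shCtrl, or 1.83, 2.06 and 2.25 per member. Genes at large had more, with 2.28, 2.73 and 3.14 per gene. The difference lies away from gene ends, where members had 78 regions in hypoxia shZHX2, 96 in hypoxia shCtrl and 109 in normoxia shCtrl, or 0.886, 1.09 and 1.24 per member, and genes at large had 1.61, 2.02 and 2.39 per gene. In hypoxia shCtrl RPS3 had 8, RPL3 had 7, and RPLP1 and RPS14 had 6 each. At the other end 31 of 88 members had exactly 1 region in hypoxia shCtrl and 8 had none. Each of those 8 had a called start region in that list. It also lay at an end of another gene and was assigned elsewhere.

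Few assigned regions of the members were called in hypoxia shCtrl and not in normoxia shCtrl. There were 7 of 181 (3.87%, exact 95% interval 1.57 to 7.81%), against 5.19% of the assigned regions of all genes, and all 7 lay away from gene ends (7 of 96, or 7.29%, where the background is 6.57%). At gene ends there were 0 of 85 (background 1.26%). They belonged to 7 genes: RPS24, RPS3, RPL13A, RPL32, RPS14, RPS10-NUDT3 (where the region lies equally near to RPS10) and RPS20. Their folds ran from 2.17 to 3.13, and all but that of RPS3 were also not called in hypoxia shZHX2. The region near RPL13A, a protein of the large subunit that can also silence inflammatory transcripts, was the strongest of them by significance, with a -log10 q of 25.1 (chr19:49489732-49490000, inside the gene). In the other direction 25 of 198 regions (12.6%, interval 8.34 to 18.1%) were called in normoxia shCtrl and not in hypoxia shCtrl, against 17.8% over all genes. Of these 3 lay at a gene end (background 5.17%), those of RPL10, RPS23 and RPL35A, and 22 of 109 away from ends (20.2%, background 21.7%). RPL22L1, RPL3 and RPS24 had 2 each. The highest fold among the 25 was 4.38, in a region inside RPS10-NUDT3, 37509 bp from its nearer end. That region was also called in hypoxia shZHX2. These counts depend on list length: with the lists set to equal length by -log10 q there were 7 regions in hypoxia shCtrl alone of this pair and 10 in normoxia shCtrl alone, and by fold 6 and 7.

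With the hairpin, 3 of 161 regions (1.86%, interval 0.386 to 5.35%) were called in hypoxia shZHX2 and not in hypoxia shCtrl, against 5.43% over all genes. At gene ends there were 0 of 83 (background 1.08%) and away from them 3 of 78 (3.85%, background 7.26%). They were assigned to RPS29, RPS9 and RPS10-NUDT3 (the last inside the gene), with folds of 3.38, 3.26 and 3.57. All 3 were also called in normoxia shCtrl. Of the 181 regions of hypoxia shCtrl, 23 (12.7%, interval 8.23 to 18.5%) were not called in hypoxia shZHX2, against 21.3% over all genes. At gene ends these were 2 of 85, those of RPS9 and RPL22L1 (background 6.17%), and away from them 21 of 96 (21.9%, background 26.6%). The strongest was 33742 bp from RPL11 (chr1:23657704-23658037), with a fold of 5.47 and a -log10 q of 50.8, and was also called in normoxia shCtrl. A region 45057 bp from RPL5 had a fold of 3.58 and was also called in normoxia shCtrl. RPS10-NUDT3 and RPS3 had 2 such regions each, and those of RPS10-NUDT3 lie equally near to the end of RPS10. RPS9 is counted in both directions. Its region called in hypoxia shZHX2 had a -log10 q of 12.9 and its region called in hypoxia shCtrl 9.73. Both overlap the same region of normoxia shCtrl (chr19:54208997-54210217). Member regions were also stronger than those of genes at large: away from gene ends the median -log10 q in hypoxia shCtrl was 60.8 for members and 37.1 for all genes. With the lists set to equal length by -log10 q, 6 regions were called in hypoxia shZHX2 and not in hypoxia shCtrl and 8 the other way, and by fold 13 and 6, where the larger count was that of hypoxia shZHX2. Among regions with a -log10 q of at least 20 the counts were 4 and 14.

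**Figure D5:**
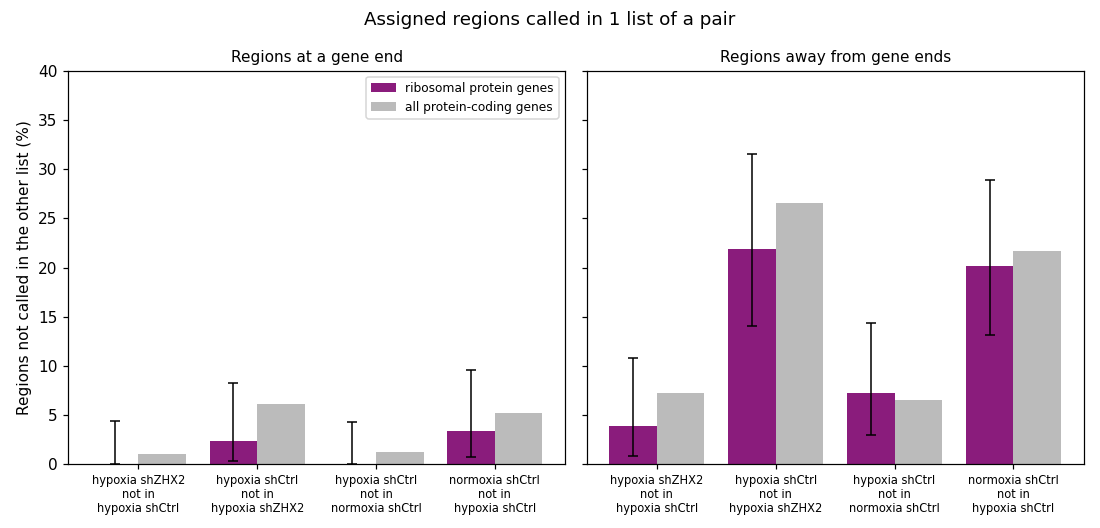
Bars give the percentage of assigned regions of the first list named that were not called in the other list, for ribosomal protein genes (with exact 95% binomial intervals, counting error only) and for all protein-coding genes, at gene ends and away from them. At gene ends 0 to 3.37% of the members' regions were missing from the other list of a pair, and away from them up to 21.9%, and each interval holds the share of all genes.

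Genes that work with the ribosomal proteins were mostly called at a gene end. All 24 translation factor and TOP genes and all 20 regulators of ribosomal protein transcription or translation on the lists used were so in each list, where the shares over all genes were 70.3% in hypoxia shZHX2, 72.5% in hypoxia shCtrl and 74.4% in normoxia shCtrl. Of 40 ribosome assembly and RNA polymerase I genes, 38 had a region in hypoxia shZHX2, 38 in hypoxia shCtrl and 39 in normoxia shCtrl. Their median folds differed from one list of genes to another: in hypoxia shCtrl the median stood at percentile 59.8 of all gene starts for translation factors and TOP genes, 68.1 for ribosome assembly and RNA polymerase I genes and 46.1 for the regulators, where ribosomal protein genes had 67.0. FAU, which encodes the small subunit protein eS30 as a fusion, had folds of 5.12 in hypoxia shZHX2, 4.30 in hypoxia shCtrl and 4.04 in normoxia shCtrl.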

How the data were processed

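The 9 ATAC-seq samples (3 per group) are represented by 3 deposited lists of regions, 1 per group, on hg38. Per the submitters' processing notes FastQC, Bowtie2, SAMtools and MACS2 were used; their settings and any pooling or filtering of reads are not given in the sources used here. The authors' columns, in a broad-peak layout, are a score, the fold enrichment and the −log10 q of each region; the score is the −log10 q times 10 without its decimals. The fold is the authors' own value for a region and was used only within a list or as a ratio set against all genes.

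Members and lists of related genes were chosen with earlier results of these data known. RefSeq gave gene ends (GRCh38); the strand came from the promoter table for 15813 of 19974 genes, 70 of them members, and elsewhere the strongest region at either end was used. A region counted as called in another list where any region of that list overlapped it by 1 bp or more. Ratios were set against the median over all genes, with 1.5-fold as the limit. Named members are those without a gene-end region, the 5 highest and lowest folds and ratios, the 5 with most assigned or differing regions, the 5 widest, and members with a known particular role; RPL6 and those of the far-end paragraph were chosen after their values were seen. Some genes that this rule picks are not reported here. Calculations used Python 3.11.15, pandas 2.3.3, numpy 2.4.6 and scipy 1.17.1, and overlap, assignment, ratio and motif steps were tested on simulated data. No test between groups was possible with 1 list per group. Other windows, limits, list lengths, overlaps and measures were tried.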

Additional observations from a re-analysis of the deposited data

How the results depend on the processing

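Of 132 values recomputed under other settings, 118 stayed within the limits set (a count within 1.5 times, a median log2 ratio within 0.1, a percentile within 5) and no median log2 ratio changed sign. The number of members above the median ratio of all genes was 66 to 68 in hypoxia shCtrl against normoxia shCtrl over settings that kept all members. In hypoxia shZHX2 against hypoxia shCtrl it was 56 to 62. With the ratio as deposited, members were counted above 0 and not above that median, which gave 74 and 67 in the same order. With the lists set to equal length by −log10 q, 10 member regions were called in normoxia shCtrl and not in hypoxia shCtrl, 6 in hypoxia shZHX2 and not in hypoxia shCtrl, and 8 the reverse; by fold these were 7, 13 and 6, which puts the larger count of the hairpin comparison on the other side, and 1 member (RPL19) had a gene end called in hypoxia shCtrl and not in normoxia shCtrl. A −log10 q of at least 20 left 14 regions called in hypoxia shCtrl and not in hypoxia shZHX2, and assignment within 20 kb left 1 called in hypoxia shZHX2 and not in hypoxia shCtrl. With −log10 q in place of the fold, 3 members (RPL19, RPS12 and RPLP1) were over 1.5 times higher in hypoxia shCtrl, and with fold times width 1 member (RPS21) was so in hypoxia shZHX2. Leaving out genes that share their region put the median member at percentile 75.6 in hypoxia shZHX2 and 66.6 in normoxia shCtrl. In windows of 100 bases before the start, 9 members held ACGTG. The cause of these shifts was not tested beyond the settings themselves. Fold times width, ratios within fold deciles, subunit genes alone and any annotated start were chosen after seeing the data. No paired analysis was possible because the lists hold no values per sample, and for the same reason no replicate could be left out. Depth is unknown.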
